A study of Homo sapiens with 24 samples.

Results

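The 12 etoposide libraries of the series, of 24 in all, were used to ask where the loss of DAXX and the loss of ATRX act differently on gene expression in cells with DNA damage. They were chosen by their labels and fall into 4 groups of 3 replicates, DAXX_WT, DAXX_KO, ATRX_WT and ATRX_KO, all treated with etoposide. U87-T is a line of U87 human glioblastoma cells that carries a TERT transgene, the WT control also carries an empty Cas9 vector, and DAXX_KO and ATRX_KO are each 1 clone isolated after CRISPR-Cas9 editing and selected as a survivor with features of the alternative lengthening of telomeres (ALT). Effects of a knockout and of the clone that carries it cannot be told apart in this design. The dose and duration of etoposide for these libraries are not given in the sources used here, and nothing in the labels says that replicates came from separate cultures, so that p-values measure the spread between these libraries. The genotype label of the DAXX_KO libraries names ATRX, while their titles and columns name DAXX, and the titles were followed.

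DAXX and ATRX form a chaperone complex that places the histone variant H3.3 into heterochromatin and telomeres. ATRX is the chromatin remodeller of the pair, and DAXX binds H3.3 and also joins PML nuclear bodies, p53 and MDM2. Etoposide traps topoisomerase II on DNA and leaves double-strand breaks, which activate p53 and its target genes, among them the cell cycle inhibitor CDKN1A. The comparison asks which genes answer differently to the loss of either partner of the complex.

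For each gene, the DAXX_KO effect is the log2 fold change of DAXX_KO over DAXX_WT, the ATRX_KO effect that of ATRX_KO over ATRX_WT, and the difference is the DAXX_KO effect minus the ATRX_KO effect. A positive difference therefore means that the gene stood higher in DAXX_KO, relative to its own WT, than in ATRX_KO. A gene was called when it passed a false discovery rate of 0.05 in edgeR's quasi-likelihood test, with Benjamini-Hochberg adjustment over 15976 genes. Levels are given per library as CPM, the counts scaled to a common library size with TMM factors, in the order of replicates 1 to 3. Library totals ranged from 7736867 to 12993423 counts, with the ATRX libraries deeper than the DAXX libraries, and 3 counts corresponded to 0.211 to 0.413 CPM. Replicates of the knockout groups differed more from each other than WT replicates did, with a chi-square per degree of freedom of 4.57 to 17.1 against 2.16 to 3.00.

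DAXX mRNA (gene ENSG00000204209, chromosome 6 from 33286335 to 33290793 on GRCh37) was at 21.4, 22.2 and 23.1 CPM in DAXX_WT, 7.44, 11.4 and 11.4 in DAXX_KO, 20.5, 21.3 and 18.7 in ATRX_WT, and 45.4, 37.3 and 39.5 in ATRX_KO. It was thus lower in all DAXX_KO libraries and higher in all ATRX_KO libraries than in their own WT, with effects of −1.13 in DAXX_KO and 1.01 in ATRX_KO, and its difference was −2.15 (SE 0.19, edgeR adjusted p = 8.81e-08). ATRX mRNA (gene ENSG00000085224, chromosome X from 76760358 to 77041719) was at 164, 182 and 184 CPM in DAXX_WT, 250.3, 262 and 248 in DAXX_KO, 167, 169 and 177 in ATRX_WT, and 59.5, 77.7 and 68.6 in ATRX_KO. Here the order was turned round, since ATRX stood above WT in every DAXX_KO library and below it in every ATRX_KO library, with effects of 0.52 in DAXX_KO and −1.32 in ATRX_KO and a difference of 1.84 (SE 0.12, edgeR adjusted p = 1.95e-09). Each targeted gene was therefore reduced in its own knockout and raised in the other, within the 857 genes described below. The 60 nearest tested genes of ATRX had a median effect of 0.29 in DAXX_KO, so part of its rise was shared by neighbours. Those of DAXX had a median of −0.01 in ATRX_KO. QuantSeq reads only the 3′ end of a transcript, so residual counts say nothing about an edit further upstream.

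The libraries were compared with markers of the cell types that could be present. Of 22 glial and neural markers, 11 had enough counts to be tested and their summed level was 383 to 485 CPM in the 12 libraries. Among astrocyte markers, S100B was at 0 in every library and GFAP at most 0.386 CPM. ALDH1L1 and SLC1A3 were present, at 33.0 to 79.4 and 2.73 to 7.585 CPM. TUBB3, at 231 to 334 CPM, made up the largest part of the sum. Mesenchymal markers summed to 4101 to 4403 CPM in DAXX_WT, 2562 to 3537 in DAXX_KO, 3638 to 3781 in ATRX_WT and 3882 to 4469 in ATRX_KO, so they were lower in DAXX_KO than in its WT and higher in ATRX_KO. Blood and endothelial markers summed to 36.3 to 47.2 CPM and epithelial markers to 20.95 to 47.7 CPM, the latter lowest in DAXX_KO, and the part of these markers in the results was not tested. In bulk RNA, fewer cells of a type and less RNA per cell cannot be told apart.

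The knockout effects differed in 5531 of 15976 genes tested (34.6%), with 2924 genes (18.3%) at a higher DAXX_KO effect and 2607 (16.3%) at a lower one. DAXX_KO on its own changed 7956 genes (49.8%) and ATRX_KO 7626 (47.7%). Split by direction, 25.4% of genes were higher and 24.4% lower in DAXX_KO, and 23.5% higher and 24.2% lower in ATRX_KO. The counts of list members below are to be read beside these shares and the 34.6%. Both effects were called in 4781 genes (29.9%), of which 1889 were higher in both knockouts, 2035 lower in both and 857 moved in opposite directions. These 857 genes, 5.36% of those tested, comprised 499 that were higher in DAXX_KO and lower in ATRX_KO, and 358 with the reverse pattern. With a replicate block shared by the knockout groups, 726 genes were opposite, of which 584 were among the 857. Of the other genes with a called difference, 1863 changed in DAXX_KO alone, 1494 in ATRX_KO alone, 694 changed the same way but further in DAXX_KO and 451 the same way but further in ATRX_KO, and 172 passed neither single test. A difference of at least 2-fold was found in 2045 called genes and of at least 4-fold in 663, and 635 genes (3.97%) passed a test against a minimum difference of 1 on the log2 scale. Across genes, the effects had a Spearman correlation of 0.43 across 15976 genes, given as a description since genes are not independent. With library totals in place of TMM scaling, the split of called genes was 4641 higher and 3304 lower in DAXX_KO, beside 4058 and 3898, and 4663 higher and 3168 lower in ATRX_KO, beside 3762 and 3864. That scaling moved the median effect by 0.08 in DAXX_KO and 0.10 in ATRX_KO on the log2 scale, and the median difference by −0.02.

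**Figure D1:**
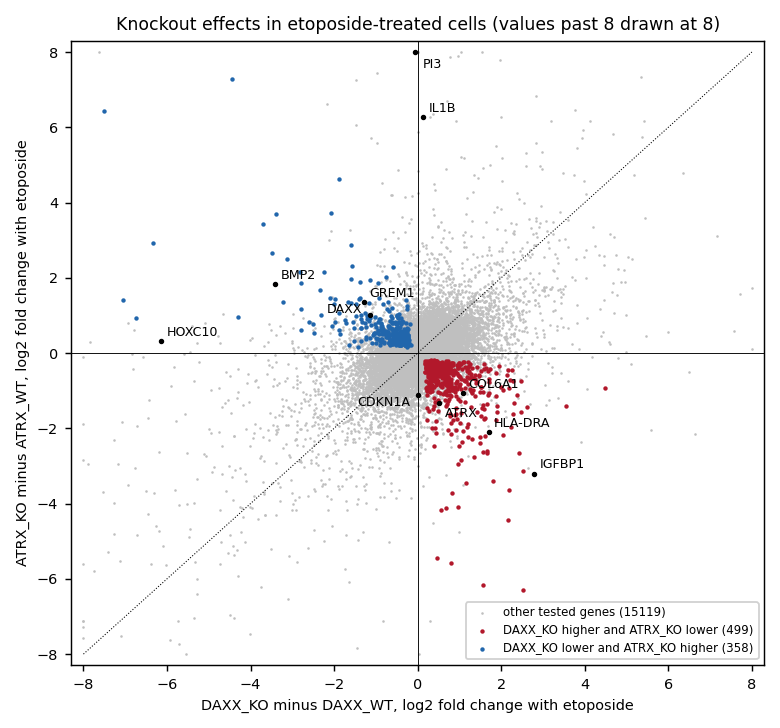
Each point is 1 of 15976 genes, with the DAXX_KO effect on the x axis and the ATRX_KO effect on the y axis, both as log2 fold changes with etoposide. The dotted line marks equal effects. Red points (499 genes) lie in the lower right quadrant with IGFBP1 at 2.79 and −3.21, and blue points (358 genes) in the upper left with BMP2 at −3.40 and 1.83, while PI3 and IL1B lie near 0 on the x axis and high on the y axis.

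The largest differences in favour of DAXX_KO, among genes that reached 10 CPM in a group, were found in genes that were low in ATRX_KO. IGFBP1, a secreted binding protein of insulin-like growth factors, was at 8.23, 10.9 and 9.08 CPM in DAXX_WT, 63.5, 63.8 and 68.5 in DAXX_KO, 11.1, 13.9 and 9.16 in ATRX_WT, and 1.31, 1.13 and 1.25 in ATRX_KO. Its groups did not overlap in either series, its effects were 2.79 in DAXX_KO and −3.21 in ATRX_KO, and its difference was 5.996 (SE 0.24, edgeR adjusted p = 2.84e-12). DNALI1, a dynein light intermediate chain of cilia, was at 3.99, 3.18 and 2.89 CPM in DAXX_WT, 14.9, 15.6 and 15.1 in DAXX_KO, 3.98, 4.67 and 3.25 in ATRX_WT, and 0.438, 0.211 and 0.295 in ATRX_KO, again up in DAXX_KO and down in ATRX_KO without overlap, with a difference of 5.82 (SE 0.37, edgeR adjusted p = 1.16e-09). PCGF3, a subunit of variant Polycomb repressive complexes, differed by 6.38 (SE 0.44, edgeR adjusted p = 3.39e-09) and DTNBP1, the dysbindin subunit of the BLOC-1 complex that sorts cargo to lysosome-related organelles, by 5.90 (SE 0.32, edgeR adjusted p = 1.44e-10). Both fell in ATRX_KO, with effects of −5.58 and −5.44, and rose in DAXX_KO, with 0.80 and 0.46. The genes around PCGF3 also rose in DAXX_KO, with a median of 0.63, and those around DTNBP1 had a median of −0.10. With a replicate block shared by the knockout groups, the DAXX_KO effects of PCGF3 (0.638, edgeR adjusted p = 0.0576) and DTNBP1 (0.478, edgeR adjusted p = 0.0563) were no longer called. The transcript RP11-312O7.2 had a larger fitted difference still. It was at 20.1, 15.9 and 17.9 CPM in DAXX_KO and at 0 in every DAXX_WT library, at least 46.2-fold higher, but at 11.6, 0 and 0 CPM in ATRX_WT and 0, 0 and 12.5 CPM in ATRX_KO. Its call was lost without ATRX_WT replicate 1 (2.08), without DAXX_KO replicate 1 (10.33) and without any single DAXX_WT replicate.

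In the other direction, PI3, which encodes the elastase inhibitor elafin, was at 0.257, 0.612 and 0.688 CPM in DAXX_WT, 0.496, 0.528 and 0.459 in DAXX_KO, 0.0905, 0.280 and 0.394 in ATRX_WT, and 73.6, 61.6 and 68.3 in ATRX_KO. It was near the detection limit in 9 libraries and high in the 3 ATRX_KO libraries, with a difference of −8.07 (SE 0.73, edgeR adjusted p = 1.14e-07) and an ATRX_KO effect of 8.01. ZNF569 and ZNF260, zinc finger genes of chromosome 19, showed the same pattern. ZNF569 was at or under 3 counts in every library outside ATRX_KO and at 25.1, 24.8 and 26.9 CPM within it, at least 90.7-fold higher than in ATRX_WT, and ZNF260 differed by −7.56 (SE 1.59, edgeR adjusted p = 0.00115). MAGED4B and MAGED4, a nearly identical pair of MAGE family genes on chromosome X whose reads may be split between them, fell in DAXX_KO and rose in ATRX_KO. MAGED4B was at 25.9, 19.6 and 19.9 CPM in DAXX_WT, 0, 0.317 and 0.115 in DAXX_KO, 24.7, 25.02 and 25.4 in ATRX_WT, and 64.4, 60.2 and 76.7 in ATRX_KO, at least 63.3-fold lower in DAXX_KO than in DAXX_WT and higher in ATRX_KO by 1.42 on the log2 scale. RP11-439A17.7, a long noncoding RNA of chromosome 1, varied within groups, at 11.1, 6.61 and 12.1 CPM in DAXX_WT, 0.248, 0 and 0 in DAXX_KO, 0, 11.8 and 13.002 in ATRX_WT, and 21.2, 15.99 and 1.03 in ATRX_KO. It was at least 28.8-fold lower in DAXX_KO than in DAXX_WT, and ATRX_KO overlapped with ATRX_WT.

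Among the genes with opposite effects, those higher in DAXX_KO and lower in ATRX_KO included antigen presentation genes of the MHC class II locus. HLA-DRA, the alpha chain of HLA-DR, was at 10.2, 11.9 and 12.5 CPM in DAXX_WT, 39.5, 38.8 and 33.97 in DAXX_KO, 13.5, 16.8 and 12.6 in ATRX_WT, and 2.45, 3.45 and 3.99 in ATRX_KO. All DAXX_KO libraries lay above and all ATRX_KO libraries below their WT, with effects of 1.70 in DAXX_KO and −2.10 in ATRX_KO and a difference of 3.80 (SE 0.23, edgeR adjusted p = 5.98e-10). HLA-DRB5, a beta chain of HLA-DR whose reads can be shared with other DRB genes, had effects of 2.53 in DAXX_KO and −3.13 in ATRX_KO. S100A4, a calcium-binding protein linked to cell motility, was at 6.95, 6.86 and 7.43 CPM in DAXX_WT, 29.8, 21.01 and 27.5 in DAXX_KO, 10.1, 9.24 and 10.8 in ATRX_WT, and 2.63, 2.96 and 3.17 in ATRX_KO, with effects of 1.88 in DAXX_KO and −1.78 in ATRX_KO. EFEMP1, the matrix glycoprotein fibulin-3, and ATOH8, a bHLH transcription factor, had effects of 1.81 in DAXX_KO and −3.39 in ATRX_KO, and of 2.29 in DAXX_KO and −1.63 in ATRX_KO. NBPF8, of a family of near-identical copies, was uneven within groups, from 1.35 to 4.68 CPM in DAXX_WT and 6.86 to 18.9 CPM in DAXX_KO, and its effects of 2.43 in DAXX_KO and −2.66 in ATRX_KO are uncertain.

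The reverse pattern, lower in DAXX_KO and higher in ATRX_KO, included a signalling ligand and several noncoding RNAs. BMP2, a ligand of the bone morphogenetic protein pathway, was at 3.99, 5.27 and 5.64 CPM in DAXX_WT, 0.496, 0.422 and 0.459 in DAXX_KO, 5.52, 2.61 and 5.02 in ATRX_WT, and 17.2, 14.9 and 14.8 in ATRX_KO. The 3 DAXX_KO libraries were all under 0.5 CPM and the 3 ATRX_KO libraries all above 14 CPM, with effects of −3.40 in DAXX_KO and 1.83 in ATRX_KO and a difference of −5.23 (SE 0.42, edgeR adjusted p = 2.67e-08). CES1, a liver-type carboxylesterase, was at 2.32, 0.980 and 1.93 CPM in DAXX_WT, 0.124, 0 and 0.344 in DAXX_KO, 1.63, 1.59 and 1.48 in ATRX_WT, and 22.4, 18.5 and 20.4 in ATRX_KO. It was at or under 3 counts in DAXX_KO, at least 5.05-fold lower than in DAXX_WT, and higher in every ATRX_KO library than in any other. KRTAP1-5, a hair keratin-associated protein, ZNF883, a zinc finger gene, TMEM151B, a membrane protein, HSPA12A, a distant relative of HSP70 chaperones, and the long noncoding RNAs LINC00665 and LINC02381 followed. Their ATRX_KO effects ran from 1.44 in LINC02381 to 4.62 in ZNF883, and their DAXX_KO effects were negative and called in each.

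**Figure D2:**
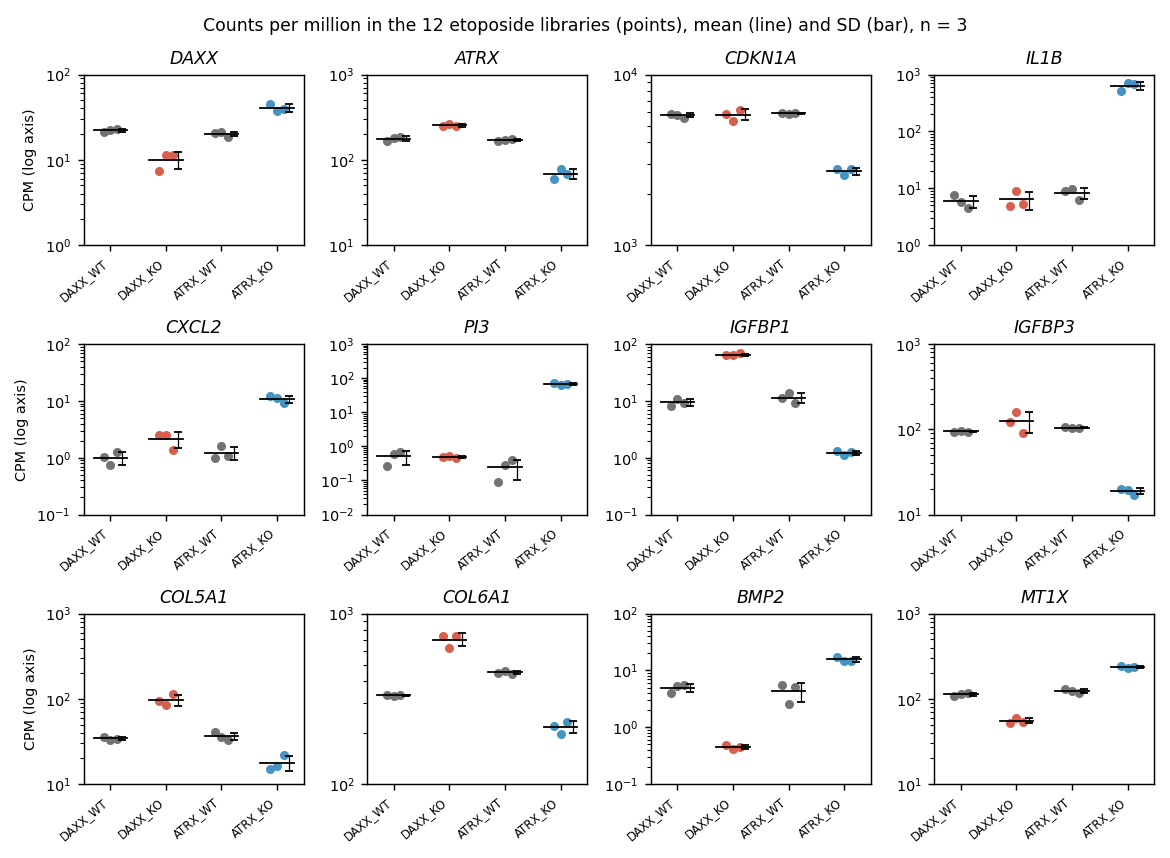
CPM on a log axis for 12 genes in the 12 etoposide libraries, with points for replicates, a line for the mean and a bar for the SD (n = 3). CDKN1A is lower in the ATRX_KO libraries alone, IL1B, CXCL2 and PI3 are highest in ATRX_KO, IGFBP1, COL5A1 and COL6A1 are high in DAXX_KO and low in ATRX_KO, and BMP2 and MT1X show the reverse order.

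Genes of the p53 response did not share a direction in the difference. CDKN1A (chromosome 6 from 36644237 to 36655114 on GRCh37), which encodes the CDK inhibitor p21, was at 5879, 5806 and 5587 CPM in DAXX_WT, 5877, 5374 and 6226 in DAXX_KO, 5941, 5878 and 5950.2 in ATRX_WT, and 2786, 2559.8 and 2794 in ATRX_KO. DAXX_KO overlapped with its WT, with an effect of 0.02 (edgeR adjusted p = 0.85), while ATRX_KO lay below WT in every library, with an effect of −1.13, and the difference was 1.14 (SE 0.09, edgeR adjusted p = 2.48e-08). TRIAP1, a p53 target that limits apoptosis, followed CDKN1A, with effects of −0.09 in DAXX_KO and −1.36 in ATRX_KO and a difference of 1.27 (SE 0.11, edgeR adjusted p = 9.90e-08). DDB2, which recognises ultraviolet damage in nucleotide excision repair, differed by 0.93 (SE 0.10, edgeR adjusted p = 1.15e-06), with an ATRX_KO effect of −1.08. PADI4, a p53-regulated enzyme that converts arginine in histones to citrulline, was at 8.23, 9.80 and 9.63 CPM in DAXX_WT, 5.58, 4.12 and 5.28 in DAXX_KO, 18.5, 20.3 and 20.7 in ATRX_WT, and 1.84, 1.76 and 2.58 in ATRX_KO, falling in both knockouts and further in ATRX_KO, with a difference of 2.36 (SE 0.26, edgeR adjusted p = 1.32e-06). Its WT groups also differed, DAXX_WT from ATRX_WT by −1.10 (edgeR adjusted p = 1.70e-04), which enters that difference.

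GADD45A, a stress sensor that inhibits cell cycle kinases, went the other way, at 1037, 1011 and 1024 CPM in DAXX_WT, 234, 308 and 225 in DAXX_KO, 1410.3, 1300.3 and 1408 in ATRX_WT, and 856, 953 and 669 in ATRX_KO. It fell in both knockouts without overlap, with effects of −2.001 in DAXX_KO and −0.73 in ATRX_KO, so that its difference was −1.27 (SE 0.16, edgeR adjusted p = 7.12e-06). MDM2, the ubiquitin ligase that degrades p53, fell in both knockouts, with effects of −0.69 in DAXX_KO and −0.68 in ATRX_KO and a difference of −0.01 (SE 0.09, edgeR adjusted p = 0.925). Among 20 p53 targets of cell cycle arrest and feedback, 12 were called in the difference, 6 higher and 6 lower, with a median of −0.08 beside −0.00 over all genes. Relative to neighbouring genes the median was 0.128. Within that list, 14 were lower in DAXX_KO and 13 in ATRX_KO, beside 24.4% and 24.2% of all tested genes. Of 20 apoptosis and death receptor targets, 7 were called (4 higher, 3 lower), with a median of −0.06. That share of 35% was near the 34.6% of all genes. Of 18 tested targets in repair and metabolism, 9 were called, 7 of them higher, with a median difference of 0.52 (0.311 without DAXX_KO replicate 3), median effects of −0.08 in DAXX_KO and −0.75 in ATRX_KO.

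Cell cycle genes had called differences in both directions, while G1/S genes more often fell than rose in each knockout. E2F1, the transcription factor that drives S-phase genes, was at 56.1, 56.2 and 53.5 CPM in DAXX_WT, 124, 116 and 139 in DAXX_KO, 82.3, 87.1 and 88.3 in ATRX_WT, and 61.7, 55.2 and 49.4 in ATRX_KO. It was above WT in every DAXX_KO library and below it in every ATRX_KO library, with effects of 1.19 in DAXX_KO and −0.63 in ATRX_KO and a difference of 1.82 (SE 0.13, edgeR adjusted p = 3.89e-09). For E2F1, DAXX_WT also differed from ATRX_WT, by −0.64 (edgeR adjusted p = 1.80e-04), which enters that difference. CDC6, which loads the replicative helicase, fell in DAXX_KO alone (−1.78, with −0.12 in ATRX_KO), and CENPA, the histone H3 variant of centromeres, rose in DAXX_KO alone (2.26, with 0.25 in ATRX_KO). CENPA was at 2.19, 3.67 and 2.06 CPM in DAXX_WT, 12.4, 13.1 and 12.9 in DAXX_KO, 6.25, 4.20 and 7.29 in ATRX_WT, and 8.06, 6.34 and 6.72 in ATRX_KO, and its difference was 2.01 (SE 0.32, edgeR adjusted p = 8.54e-05). MAD2L1, of the spindle checkpoint, had effects of 0.79 in DAXX_KO and −0.69 in ATRX_KO, of which the latter was not called with a replicate block shared by the knockout groups (−0.428, edgeR adjusted p = 0.104), and ESPL1, the protease separase that releases sister chromatids, had −0.60 in DAXX_KO and 0.79 in ATRX_KO. Of 34 genes of G2/M and mitosis, 19 were called in the difference, 13 higher and 6 lower (median 0.21), and 5 of them moved in opposite directions. In DAXX_KO 8 of these 34 rose and 7 fell, and in ATRX_KO 4 rose and 12 fell. Of 33 tested genes of G1/S and replication, 14 were called, 6 higher and 8 lower (median −0.11), and 2 moved in opposite directions. In DAXX_KO 4 of the 33 rose and 19 fell (median −0.37), and in ATRX_KO 3 rose and 14 fell (median −0.20).

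Of 24 homologous recombination and Fanconi genes, 5 were called (1 higher and 4 lower), among them EXO1, the resection nuclease, at a difference of 1.46 and PALB2, a Fanconi anaemia protein, at −1.22. Of 21 damage signalling kinases and mediators, 9 were called, 3 higher and 6 lower. CHEK1, the checkpoint kinase downstream of ATR, differed by 0.97, RNF168, a ubiquitin ligase that marks chromatin at breaks, by −1.21, and MDC1, the scaffold on phosphorylated H2AX, by −1.10. Telomere and shelterin genes were called in 5 of 16 (31.25%). Over all genes tested the share was 34.6%, beside 20.83% of the recombination genes and 42.86% of the damage signalling genes.

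Secreted inflammatory factors were, in the fit of all 12 libraries, the list with the most negative median difference apart from histones. IL1B (chromosome 2 from 113587328 to 113594393 on GRCh37), the cytokine interleukin 1 beta, was at 7.46, 5.63 and 4.54 CPM in DAXX_WT, 4.84, 9.08 and 5.28 in DAXX_KO, 8.87, 9.52 and 6.30 in ATRX_WT, and 518, 697 and 687 in ATRX_KO. The lowest ATRX_KO library was at 518 CPM and the highest of the others at 9.52 CPM, while DAXX_KO overlapped with its WT, and the difference was −6.12 (SE 0.34, edgeR adjusted p = 2.52e-10). CSF3, the granulocyte colony-stimulating factor, was at 2.19, 2.20 and 2.20 CPM in DAXX_WT, 3.97, 3.06 and 3.79 in DAXX_KO, 2.54, 3.36 and 3.35 in ATRX_WT, and 300.4, 311 and 341 in ATRX_KO, highest in ATRX_KO and raised less in DAXX_KO, with effects of 0.70 in DAXX_KO and 6.69 in ATRX_KO. CXCL2 and CXCL3, chemokines that attract neutrophils, had ATRX_KO effects of 3.13 and 3.37, DAXX_KO effects of 1.09 and 0.48 (edgeR adjusted p = 0.0158 and 0.224), and differences of −2.04 (SE 0.47, edgeR adjusted p = 0.00252) and −2.89 (SE 0.42, edgeR adjusted p = 3.04e-05). CXCL1, of the same family, differed by −2.79, but it was at most 4.16 CPM in any library and the call was lost without ATRX_KO replicate 2 (−2.59), without DAXX_WT replicate 3 (−2.57) and in a fit of all 24 libraries (−2.81). Reads of these similar chemokine genes can be shared. LIF, a cytokine of the interleukin 6 family, moved in opposite directions, with effects of −1.74 in DAXX_KO and 0.87 in ATRX_KO. In the list as a whole, 9 of 18 tested members were called, 6 lower and 3 higher, with a median difference of −1.06 (−0.671 without DAXX_WT replicate 1) and a median ATRX_KO effect of 1.36 against 0.43 in DAXX_KO. The 3 higher members were IL32 (2.53), the death ligand TNFSF10 (2.30) and the epithelial cytokine TSLP (0.81). Blood and endothelial markers summed to 36.3 to 47.2 CPM across the groups, of which CD68 alone was at 28.6 to 41.0 CPM. The pan-leukocyte marker PTPRC was at most 1.80 CPM in any library. The part of these markers in the result was not tested.

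The promoters of the neighbouring chemokine genes CXCL1, CXCL2 and CXCL3 are shown because these members moved together in ATRX_KO. The sequences are the 250 bases before each start from RefSeq (build GRCh38.p14), 5′ to 3′ on the strand of the gene, with matches to the NF-kB consensus in capitals. NF-kB is the transcription factor family that carries inflammatory signals to such genes.
CXCL1 (chr4:73869143-73869392, + strand): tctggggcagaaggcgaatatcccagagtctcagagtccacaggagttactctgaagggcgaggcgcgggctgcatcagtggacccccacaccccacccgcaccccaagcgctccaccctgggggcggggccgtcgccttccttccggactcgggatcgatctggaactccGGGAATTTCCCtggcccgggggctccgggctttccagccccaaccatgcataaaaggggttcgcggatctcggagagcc
CXCL2 (chr4:74099196-74099445, − strand): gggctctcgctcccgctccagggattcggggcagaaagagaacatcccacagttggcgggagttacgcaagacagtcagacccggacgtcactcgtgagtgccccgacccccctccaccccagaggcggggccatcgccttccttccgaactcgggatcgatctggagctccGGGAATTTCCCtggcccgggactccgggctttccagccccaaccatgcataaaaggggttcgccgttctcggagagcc
CXCL3 (chr4:74038690-74038939, − strand): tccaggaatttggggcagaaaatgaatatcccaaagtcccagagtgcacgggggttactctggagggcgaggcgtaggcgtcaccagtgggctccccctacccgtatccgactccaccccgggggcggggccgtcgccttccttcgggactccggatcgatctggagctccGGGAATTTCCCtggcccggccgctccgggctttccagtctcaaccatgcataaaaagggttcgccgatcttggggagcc
The capitals hold 2 overlapping matches, 1 on each strand, at 77 to 79 bases before the start, within a run of 23 bases that all 3 windows share. A match was found in 5 of 13 tested members of the list with a promoter in the table and in 1828 of 35116 promoters of the same length (5.21%). The members with a match include CXCL1, CXCL2 and CXCL3, whose shared run means that they are not separate observations. Each member was counted with 1 promoter, while the 35116 are all promoters in the table, so the shares are not strictly alike. CSF3 had no promoter in the table. A match is a description of letters and does not show binding.

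Of 19 NF-kB pathway and target genes, 9 were called in the difference, 2 higher and 7 lower, and 11 rose and 4 fell in ATRX_KO. Of 10 tested prostaglandin genes, 7 were called, 3 higher and 4 lower, with 4 up and 4 down in each knockout. NFKBIZ, an inducible nuclear regulator of NF-kB, was at 10.3, 9.06 and 11.97 CPM in DAXX_WT, 9.79, 7.18 and 8.03 in DAXX_KO, 10.4, 8.68 and 7.88 in ATRX_WT, and 55.1, 48.3 and 41.7 in ATRX_KO, with ATRX_KO above all other libraries and a difference of −2.75 (SE 0.23, edgeR adjusted p = 3.50e-08). IER3, an early response gene that limits cell death, had effects of 0.21 in DAXX_KO and 1.86 in ATRX_KO, of which the former was not called (edgeR adjusted p = 0.0592). PTGS2, the prostaglandin synthase COX-2, was at 7.07, 6.98 and 6.88 CPM in DAXX_WT, 29.8, 30.5 and 22.6 in DAXX_KO, 11.1, 12.04 and 15.7 in ATRX_WT, and 221, 178 and 154 in ATRX_KO. It rose in both knockouts and further in ATRX_KO, with a difference of −1.85 (SE 0.24, edgeR adjusted p = 1.12e-05). PTGES, the terminal prostaglandin E synthase, rose further in DAXX_KO (3.47) than in ATRX_KO (1.56), while PTGIR, the prostacyclin receptor, rose in ATRX_KO (2.49) and had an effect of 0.28 in DAXX_KO.

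Immediate early genes, which follow growth factor and MAPK signals, were called in 15 of 27 tested members, 3 higher and 12 lower, with a median difference of −0.62. EGR1, a zinc finger factor of this class, was at 9.004, 9.43 and 12.8 CPM in DAXX_WT, 10.04, 18.5 and 14.1 in DAXX_KO, 13.8, 12.97 and 11.7 in ATRX_WT, and 71.98, 73.5 and 70.9 in ATRX_KO, and DUSP6, a phosphatase that acts on ERK, at 20.97, 21.3 and 20.6 CPM in DAXX_WT, 19.96, 25.7 and 22.8 in DAXX_KO, 16.8, 17.9 and 17.5 in ATRX_WT, and 119.8, 134 and 123 in ATRX_KO. Both were highest in ATRX_KO, with no overlap with ATRX_WT, and differed by −2.02 (SE 0.24, edgeR adjusted p = 2.48e-06) and −2.73 (SE 0.14, edgeR adjusted p = 9.12e-11). DUSP4, a related nuclear phosphatase, went against them, with effects of 0.44 in DAXX_KO and −2.14 in ATRX_KO and a difference of 2.58. It lies in a stretch of chromosome 8 where the median gene also differed by 0.64, and relative to its neighbours its difference was 1.67.

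Collagen genes fell in ATRX_KO in 14 of 21 tested members and rose in 2, while in DAXX_KO 9 rose and 7 fell. Over all tested genes, 24.2% fell and 23.5% rose in ATRX_KO, and 25.4% rose and 24.4% fell in DAXX_KO. The median effect of the collagen genes was −1.10 in ATRX_KO and −0.00103 in DAXX_KO. Of the 21 tested collagen genes, 11 were called in the difference, 10 higher and 1 lower, with a median difference of 0.88, and 6 of these were higher in DAXX_KO and lower in ATRX_KO. COL5A1, the alpha 1 chain of the fibril-regulating collagen V, was at 36.1, 32.9 and 33.98 CPM in DAXX_WT, 93.9, 85.1 and 113 in DAXX_KO, 40.5, 36.03 and 32.7 in ATRX_WT, and 15.2, 16.3 and 21.7 in ATRX_KO. COL6A1, of the microfibril-forming collagen VI, was at 334, 329.5 and 333 CPM in DAXX_WT, 738, 632 and 741 in DAXX_KO, 449, 462 and 443 in ATRX_WT, and 220.4, 197 and 232 in ATRX_KO. In both genes the DAXX_KO libraries lay above and the ATRX_KO libraries below their WT without overlap, with differences of 2.53 (SE 0.18, edgeR adjusted p = 5.77e-09) and 2.14 (SE 0.11, edgeR adjusted p = 7.34e-11). COL5A2, COL6A2, COL7A1, the anchoring fibril collagen of epithelial borders, and COL27A1, a fibrillar collagen, made up the 6, with DAXX_KO effects of 0.48 to 1.002 and ATRX_KO effects of −1.34 to −0.81.

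COL1A1 and COL1A2 encode the chains of collagen I and parted from each other. COL1A1 was at 190.2, 215 and 209 CPM in DAXX_WT, 106, 124 and 121 in DAXX_KO, 223, 225 and 213 in ATRX_WT, and 40.7, 59.7 and 70.3 in ATRX_KO, falling in both knockouts and further in ATRX_KO. Its difference was 1.15 (SE 0.18, edgeR adjusted p = 7.22e-05). COL1A2 rose in ATRX_KO (0.83) and had an effect of −0.02 in DAXX_KO, and was the 1 collagen gene with a called negative difference, of −0.86 (SE 0.15, edgeR adjusted p = 1.99e-04). COL6A1 and COL6A2 are neighbours at the end of chromosome 21, where the median gene of the block differed by 0.62, and COL5A1 lies in a block of chromosome 9 with a median of 0.76. Relative to the 60 nearest tested genes, COL6A1 differed by 1.60, COL6A2 by 1.29 and COL5A1 by 1.85, each still called. The fibroblast and mesenchymal markers summed lower in DAXX_KO than in its WT and higher in ATRX_KO, as given above, which is the opposite order to these collagens, although 8 of 12 called markers had a positive difference, and their part in the result was not tested.

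Insulin-like growth factor binding proteins, which hold growth factors in the matrix, had a median difference of 2.62 over 7 members, of which 5 were called, all higher, and 3 had opposite effects. IGFBP3, the main carrier of these factors and a p53 target, was at 94.2, 96.7 and 93.1 CPM in DAXX_WT, 123, 159.6 and 90.7 in DAXX_KO, 107, 104 and 103 in ATRX_WT, and 20.1, 19.7 and 17.1 in ATRX_KO. ATRX_KO lay far below its WT while 2 DAXX_KO libraries lay above their WT and 1 below it, with effects of 0.39 in DAXX_KO and −2.47 in ATRX_KO and a difference of 2.86 (SE 0.20, edgeR adjusted p = 3.28e-09). IGFBP5 was at most 1.37 CPM, and its call was lost in 6 of 12 fits that left out 1 library, with values from 2.06 without ATRX_WT replicate 2 to 3.24 without DAXX_WT replicate 1 for these 6.

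Other matrix glycoproteins and proteoglycans were called in 19 of 26 tested members, 18 higher and 1 lower, with a median difference of 0.67. THBS2, the matrix protein thrombospondin 2, was at 1.03, 2.69 and 0.963 CPM in DAXX_WT, 30.9, 33.4 and 35.6 in DAXX_KO, 1.45, 1.03 and 1.28 in ATRX_WT, and 1.23, 2.11 and 1.77 in ATRX_KO, high in DAXX_KO alone, with a difference of 3.92 (SE 0.45, edgeR adjusted p = 2.13e-06). FN1, the cell adhesion protein fibronectin, was chosen after its values were seen and had means of 206 ± 14.4 CPM (SD, n = 3) in DAXX_WT, 590.0 ± 49.96 in DAXX_KO, 306 ± 8.33 in ATRX_WT and 163 ± 10.1 in ATRX_KO, with effects of 1.52 in DAXX_KO and −0.90 in ATRX_KO. The exception with a negative difference was FBLN5, the elastic fibre protein fibulin-5, at most 1.62 CPM in any library. Of 20 tested metalloproteinases, ADAMTS proteases and TIMPs, 15 were called, 9 higher and 6 lower. MMP1, the interstitial collagenase, was at 0.772, 0.367 and 0.825 CPM in DAXX_WT, 0, 0.106 and 0 in DAXX_KO, 0.453, 0.653 and 0.197 in ATRX_WT, and 4.29, 4.58 and 5.68 in ATRX_KO, at or under 3 counts in DAXX_KO and highest in ATRX_KO. ADAMTS4, an aggrecanase, had effects of 1.53 in DAXX_KO and −1.68 in ATRX_KO, and ADAMTS2, which trims procollagens, was high in ATRX_KO alone (3.21). Among integrins, which bind matrix proteins, 7 of 15 were called, with ITGA11 up in DAXX_KO and down in ATRX_KO (2.28 in DAXX_KO and −0.73 in ATRX_KO) and ITGA2 down in DAXX_KO alone (−1.65, with 0.13 in ATRX_KO).

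In TGF-beta and BMP signalling, 18 of 34 tested genes were called, 11 higher and 7 lower, and 7 had opposite effects. GREM1, a secreted antagonist of BMP ligands, was at 79.2, 74.8 and 78.6 CPM in DAXX_WT, 33.6, 33.8 and 27.9 in DAXX_KO, 74.6, 71.97 and 73.4 in ATRX_WT, and 187, 185 and 192 in ATRX_KO. It was below WT in all DAXX_KO libraries and above it in all ATRX_KO libraries, the same order as BMP2, with a difference of −2.64 (SE 0.11, edgeR adjusted p = 7.16e-12). CCN1, a matricellular target of YAP, had effects of −1.89 in DAXX_KO and 0.61 in ATRX_KO, while AXL, a receptor tyrosine kinase of the same list, fell in both knockouts (−0.40 in DAXX_KO and −1.64 in ATRX_KO).

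HOX genes, which carry positional identity, were called in 11 of 25 tested members, 2 higher and 9 lower. HOXC10 was at 32.8, 32.2 and 34.4 CPM in DAXX_WT, 0.372, 0.633 and 0.344 in DAXX_KO, 27.4, 27.6 and 29.6 in ATRX_WT, and 36.95, 33.6 and 34.9 in ATRX_KO. It was almost lost in DAXX_KO and slightly higher in ATRX_KO, with a difference of −6.46 (SE 0.22, edgeR adjusted p = 3.65e-13), and HOXC8, of the same cluster, fell in DAXX_KO (−3.59, with −0.18 in ATRX_KO). Among lineage markers, THY1, a surface glycoprotein of mesenchymal cells, was at 122, 124 and 122 CPM in DAXX_WT, 3.10, 3.06 and 1.72 in DAXX_KO, 108, 104 and 104 in ATRX_WT, and 0.350, 0.282 and 0.295 in ATRX_KO, lost in both knockouts and further in ATRX_KO. MAP2, a neuronal microtubule protein, rose in DAXX_KO (2.40, with −0.35 in ATRX_KO), and MBP, a myelin protein, had opposite effects of 0.40 in DAXX_KO and −1.99 in ATRX_KO. These 3 genes do not stand for their lists. Of 15 tested mesenchymal markers, 8 rose and 3 fell in DAXX_KO, and 6 rose and 4 fell in ATRX_KO. Of 11 tested glial and neural markers, 3 rose and 3 fell in DAXX_KO, and 1 rose and 6 fell in ATRX_KO.

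Metallothioneins, small proteins that bind zinc and copper and respond to metal and oxidative stress, had opposite effects in MT2A and MT1X. MT2A (chromosome 16 from 56642496 to 56643409 on GRCh37) was at 4842, 5069 and 4358 CPM in DAXX_WT, 3183, 3465 and 3502 in DAXX_KO, 4325, 4433 and 4021 in ATRX_WT, and 7466, 7967 and 9767 in ATRX_KO. MT1X (chromosome 16 from 56716382 to 56718108) was at 108, 113 and 117 CPM in DAXX_WT, 52.7, 59.5 and 53.7 in DAXX_KO, 130.02, 123 and 118 in ATRX_WT, and 245, 232 and 236 in ATRX_KO. Both were below WT in all DAXX_KO libraries and above it in all ATRX_KO libraries, with differences of −1.47 (SE 0.12, edgeR adjusted p = 4.47e-08) and −1.97 (SE 0.11, edgeR adjusted p = 1.44e-10). MT1E fell in DAXX_KO alone (−1.66, with 0.06 in ATRX_KO). Of 8 tested members of the metallothionein list, 5 were called, 4 lower and 1 higher. The cluster lies in a block of chromosome 16 whose median difference was −0.38, and relative to their neighbours the differences were −0.88 for MT2A, −1.36 for MT1X and −1.12 for MT1E, each still called. Metallothionein genes are similar in sequence, so counts between them are uncertain.

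The 250 bases before the start of MT2A and MT1X are given from RefSeq (build GRCh38.p14), 5′ to 3′, since these genes had opposite effects. Capitals mark the core of the metal response element, TGCACNC or TGCGCNC on either strand, which the zinc-dependent factor MTF1 recognises.
MT2A (chr16:56608334-56608583, + strand): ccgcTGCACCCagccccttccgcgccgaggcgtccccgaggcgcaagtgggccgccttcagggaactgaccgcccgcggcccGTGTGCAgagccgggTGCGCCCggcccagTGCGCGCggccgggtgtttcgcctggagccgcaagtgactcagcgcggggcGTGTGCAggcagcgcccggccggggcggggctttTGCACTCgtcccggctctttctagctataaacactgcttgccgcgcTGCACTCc
MT1X (chr16:56682220-56682469, + strand): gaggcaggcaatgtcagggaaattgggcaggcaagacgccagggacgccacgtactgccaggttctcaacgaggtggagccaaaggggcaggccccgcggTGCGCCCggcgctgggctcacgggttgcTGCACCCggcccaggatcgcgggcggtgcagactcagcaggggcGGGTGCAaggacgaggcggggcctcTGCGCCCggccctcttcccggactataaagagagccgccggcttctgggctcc
The window of MT2A holds 7 matches and that of MT1X 4. A match was found in 3 of 4 tested members of the list with a promoter in the table and in 8719 of 35116 promoters of the same length (24.8%). Only 4 of the 8 tested members had a promoter in the table, and MT1E had none. Each member was counted with 1 promoter, while the 35116 are all promoters in the table, so these shares are not strictly alike. Members of similar sequence are not separate observations, and a match does not show binding.

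Oxidative stress and NRF2 targets were called in 11 of 24, 5 higher and 6 lower. More members rose than fell in each knockout, 12 against 5 in DAXX_KO (median 0.17) and 15 against 3 in ATRX_KO (median 0.33). TXNRD1, thioredoxin reductase, was at 100.1, 89.3 and 102 CPM in DAXX_WT, 51.8, 58.8 and 45.9 in DAXX_KO, 78.5, 86.3 and 78.7 in ATRX_WT, and 150.4, 165 and 137 in ATRX_KO, below WT in all DAXX_KO libraries and above it in all ATRX_KO libraries, with a difference of −1.79 (SE 0.14, edgeR adjusted p = 1.25e-08). HMOX1, which degrades haem, had effects of −1.63 in DAXX_KO and 0.21 in ATRX_KO, and SQSTM1, the autophagy receptor p62, had −0.26 in DAXX_KO and 1.18 in ATRX_KO. AKR1C3, an aldo-keto reductase, went the other way and rose further in DAXX_KO (3.77) than in ATRX_KO (1.94).

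Histone genes had the most negative median difference of the 47 lists, −1.22 over 20 members, with 12 called, 10 lower and 2 higher. Over the members with at least 10 counts in every library it was −0.535, and was then no longer the most negative, with metallothioneins at −1.475. QuantSeq primes on poly(A) tails, which most replication-dependent histone transcripts lack, and sequences are alike between copies, so these counts stand for polyadenylated forms and are uncertain between paralogs. H2AC6 was at 21.9, 18.6 and 16.4 CPM in DAXX_WT, 15.2, 23.4 and 12.4 in DAXX_KO, 9.69, 11.8 and 10.1 in ATRX_WT, and 69.002, 63.9 and 59.3 in ATRX_KO, with ATRX_KO above all other libraries and a difference of −2.75 (SE 0.24, edgeR adjusted p = 8.76e-08). H1-2, a linker histone, was at 170.1, 164 and 167 CPM in DAXX_WT, 93.2, 89.5 and 75.4 in DAXX_KO, 72.2, 80.1 and 78.1 in ATRX_WT, and 95.01, 103 and 101 in ATRX_KO. Here DAXX_WT was higher than the other groups, the effects were −0.96 in DAXX_KO and 0.37 in ATRX_KO, and the difference was −1.33 (SE 0.12, edgeR adjusted p = 7.36e-08). H2BC12 rose in both knockouts, further in ATRX_KO (1.05 in DAXX_KO and 2.26 in ATRX_KO). The variant H2AZ1, which has its own polyadenylated transcript, went against the list, with effects of 0.34 in DAXX_KO and −0.68 in ATRX_KO and a difference of 1.02 (SE 0.09, edgeR adjusted p = 1.49e-07), which was 0.58 relative to its neighbours.

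Of 18 class I antigen presentation genes, 9 were called, 8 higher and 1 lower (median 0.46). In DAXX_KO 9 of the 18 rose and 2 fell, and in ATRX_KO 4 rose and 4 fell. Over all tested genes, 25.4% rose and 24.4% fell in DAXX_KO, and 23.5% rose and 24.2% fell in ATRX_KO. TAPBP, which loads peptides onto class I molecules, was at 60.2, 58.5 and 50.8 CPM in DAXX_WT, 143, 139 and 177 in DAXX_KO, 61.1, 66.9 and 60.9 in ATRX_WT, and 79.8, 87.7 and 106 in ATRX_KO, above WT in both knockouts and further in DAXX_KO. HLA-B, a class I heavy chain whose reads can be shared with other HLA genes, was at 217, 213 and 213 CPM in DAXX_WT, 376, 439 and 342 in DAXX_KO, 351, 359.6 and 363 in ATRX_WT, and 326, 328 and 352 in ATRX_KO. DAXX_WT lay below all other groups, and DAXX_WT differed from ATRX_WT by −0.74 (SE 0.08, edgeR adjusted p = 1.16e-05). HLA-B rose in DAXX_KO (0.85) and had an effect of −0.09 in ATRX_KO (edgeR adjusted p = 0.351). Of 32 tested interferon-stimulated genes, 14 were called, 8 higher and 6 lower. USP18, which restrains interferon receptor signalling, was at 15.3, 13.8 and 11.7 CPM in DAXX_WT, 13.6, 17.3 and 11.9 in DAXX_KO, 13.3, 12.04 and 12.9 in ATRX_WT, and 1.31, 3.03 and 2.58 in ATRX_KO and was lower in ATRX_KO alone, with a difference of 2.50 (SE 0.29, edgeR adjusted p = 2.64e-06), and OAS1, a sensor of double-stranded RNA, differed by 2.22 (SE 0.39, edgeR adjusted p = 2.23e-04).

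Metabolic lists gave smaller medians. Of 24 tested genes of cholesterol synthesis and uptake, 11 were called, 7 higher and 4 lower. SREBF2, the transcription factor of the pathway, was at 13.2, 13.3 and 15.96 CPM in DAXX_WT, 14.4, 11.1 and 17.3 in DAXX_KO, 11.95, 14.001 and 14.3 in ATRX_WT, and 42.5, 46.01 and 56.02 in ATRX_KO, higher in ATRX_KO alone, and DHCR7 and HMGCS1, enzymes of cholesterol synthesis, differed by −1.65 (SE 0.22, edgeR adjusted p = 1.34e-05) and −1.52 (SE 0.18, edgeR adjusted p = 2.61e-06) in the same direction. Autophagy and lysosome genes were called in 20 of 30, 15 higher and 5 lower, and both knockouts had positive medians (0.63 in DAXX_KO and 0.34 in ATRX_KO). Among nuclear genes of oxidative phosphorylation, 17 of 36 were called, 14 higher and 3 lower, and among ribosomal proteins 22 of 42, 5 higher and 17 lower. Of the 36 oxidative phosphorylation genes, 8 rose and 13 fell in DAXX_KO (median −0.13), and 1 rose and 24 fell in ATRX_KO (median −0.35). The median ribosomal protein gene was at −0.39 in DAXX_KO and −0.19 in ATRX_KO. XBP1, a transcription factor of the unfolded protein response, fell in DAXX_KO (−1.20) with −0.23 in ATRX_KO, within a list called in 16 of 30, 5 higher and 11 lower.

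**Figure D3:**
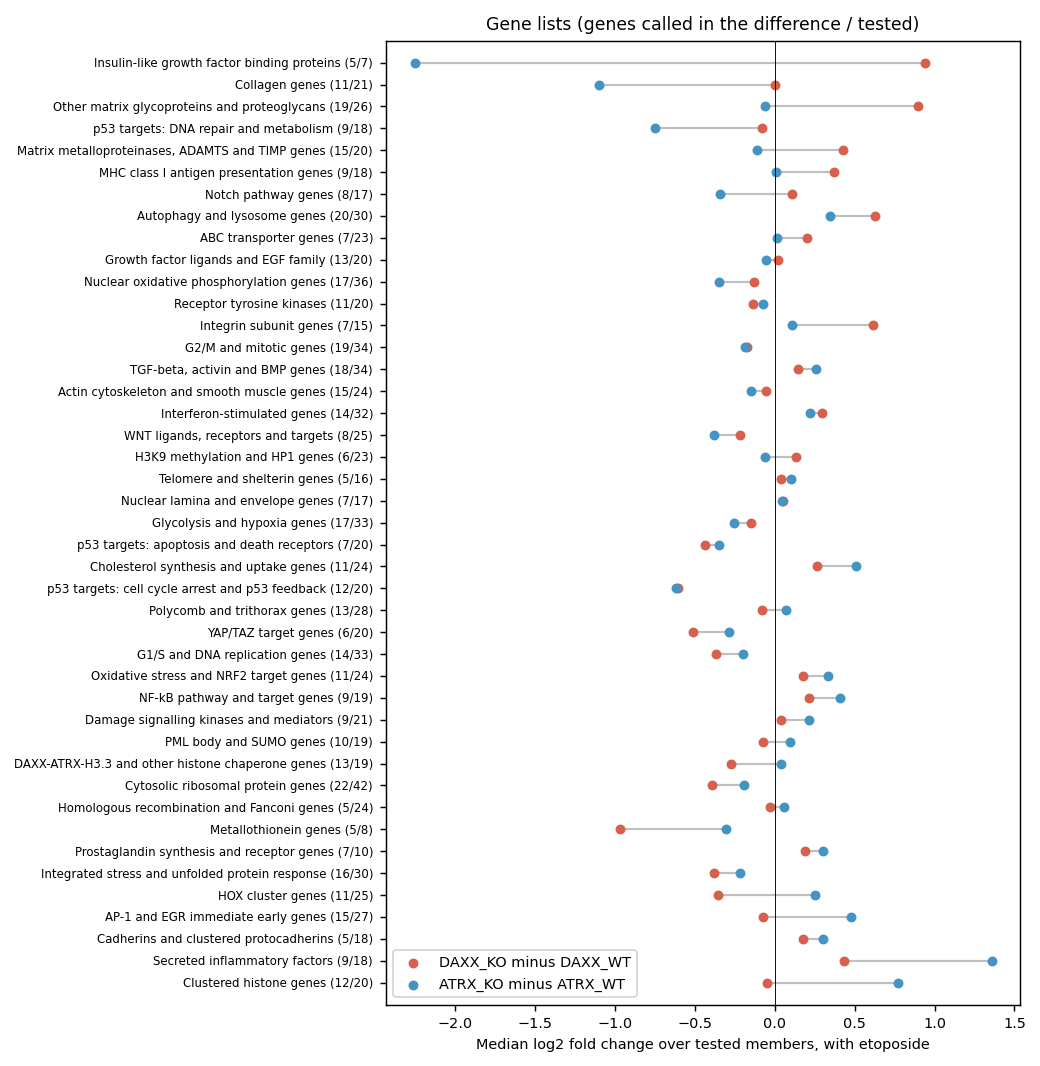
Median log2 fold change of the tested members of 43 gene lists in DAXX_KO (red) and ATRX_KO (blue), with genes called in the difference and genes tested in parentheses. The lists are ordered by their median difference, from 2.62 in insulin-like growth factor binding proteins at the top to −1.22 in histones at the bottom, and the points of both p53 lists of arrest and apoptosis lie on the left of 0 for both knockouts.

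Over all 47 lists, including 4 of cell type markers, 494 of 1004 distinct tested members were called, beside 34.6% of all genes. A further 168 members had too few counts and 19 were not in the table. The lists hold well-studied genes, and no test set their share against other genes. H3K9 methylation and HP1 genes were called in 6 of 23, WNT genes in 8 of 25 and YAP/TAZ targets in 6 of 20. MPHOSPH8, a reader of H3K9 methylation in the HUSH complex, rose in ATRX_KO (0.79) and fell in DAXX_KO (−0.28). Of 19 histone chaperone genes around DAXX and ATRX, 13 were called, 4 higher and 9 lower, and of 19 PML body and SUMO genes, 10 were called, 1 higher and 9 lower.

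Whether etoposide altered the difference was tested in a fit of all 24 libraries, as the difference with etoposide minus the difference in control, and 500 of 16674 genes were called (3%), 320 higher (1.92%) and 180 lower (1.08%). With no TMM scaling, only library totals, the split was 207 higher and 389 lower. At an unadjusted p under 0.05, 2803 genes (16.8%) passed. In control, 5693 genes (34.1%) differed between the knockouts, and of the 5531 called with etoposide, 3388 were also called in control with the same sign and 41 with the other sign. Of the 857 genes with opposite effects, 325 were opposite in control too and 86 were called in the test of the change.

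CDKN1A was among the genes whose difference changed. In control it was at 152 ± 8.60 CPM (SD, n = 3) in DAXX_WT, 212 ± 6.36 in DAXX_KO, 157 ± 3.13 in ATRX_WT and 209.5 ± 14.4 in ATRX_KO, so that both knockouts were above WT there. The difference was 0.07 in control and 1.14 with etoposide, a change of 1.06 (SE 0.12, edgeR adjusted p = 6.90e-06). TRIAP1 and DDB2 changed in the same direction, by 0.82 and 0.75. CENPA had a change of 1.62 (SE 0.33, edgeR adjusted p = 0.00495) and E2F1 of 0.92 (SE 0.16, edgeR adjusted p = 0.00131), and 9 of 34 G2/M genes and 8 of 33 G1/S genes were called in this test. H1-2 differed by −0.17 in control and −1.33 with etoposide, a change of −1.17 (SE 0.16, edgeR adjusted p = 4.92e-05), and the histone list as a whole had a median difference of −0.16 in control. GREM1 moved further apart with etoposide, by a change of −0.85 (SE 0.15, edgeR adjusted p = 0.00128).

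The largest changes in both directions were mostly in genes that differed more in control. Values in control come from the fit of 24 libraries and those with etoposide from the fit of 12. PRR9, a proline-rich protein, differed by −7.34 in control and −1.53 with etoposide, with a change of 5.80 (SE 0.82, edgeR adjusted p = 1.10e-04). SERPINB2, the plasminogen activator inhibitor PAI-2, differed by −8.81 and −4.58, PTGS2 by −5.91 and −1.85, and VGF, a secreted neuropeptide precursor, by −4.75 and −1.52. Control means in DAXX_KO were 0.0855 CPM for PRR9 and 0.170 CPM for SERPINB2, near the floor of 3 counts, so that their fitted values in control depend on few counts. VGF was at 251, 235 and 238 CPM in DAXX_WT, 85.4, 81.2 and 77.8 in DAXX_KO, 290.4, 295 and 291 in ATRX_WT, and 312, 270.5 and 268 in ATRX_KO with etoposide, lower in DAXX_KO alone. On the other side, KALRN, a guanine nucleotide exchange factor, changed sign, from 1.71 in control to −0.99 with etoposide, with a change of −2.72 (SE 0.30, edgeR adjusted p = 2.99e-06). RGS4, a brake on G protein signalling, NFATC2, a calcium-regulated transcription factor, and GPRC5C, an orphan receptor, kept a positive difference that was smaller with etoposide, with changes of −2.64, −2.60 and −2.48.

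**Figure D4:**
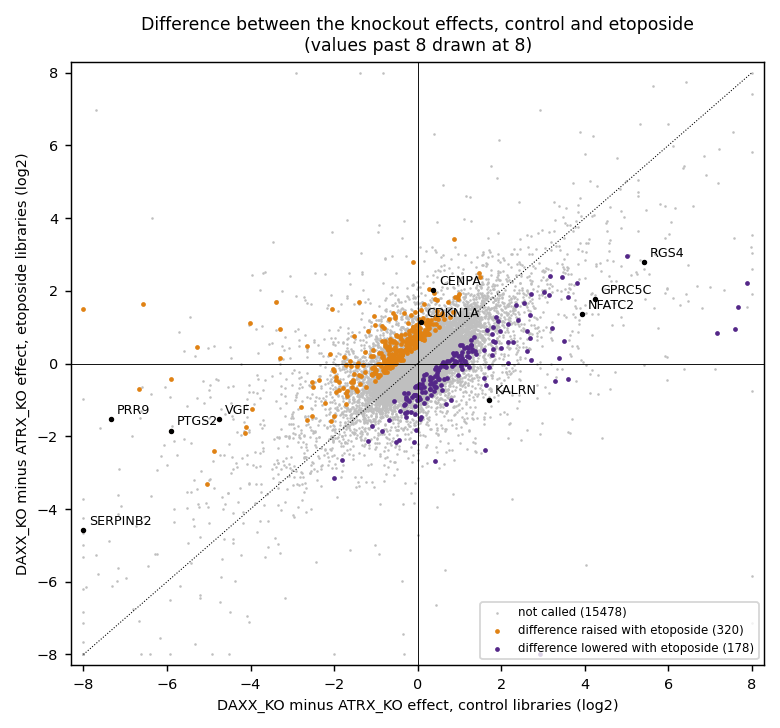
The difference between the knockout effects in control (x axis, 24-library fit) and with etoposide (y axis, 12-library fit), both in log2 units, for genes tested in both fits. Coloured genes were called in the test of the change, and the 2 called genes missing from the plot were tested in 24 libraries alone. PRR9, PTGS2 and VGF lie above the dotted line of equal difference, and CDKN1A rises from 0.07 in control to 1.14.

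The WT libraries of the series were also compared with each other, since a shift between them enters the difference. Between DAXX_WT and ATRX_WT with etoposide, 2444 genes were called (15.3%), 1197 higher in DAXX_WT (7.49%) and 1247 lower (7.81%), and the split was 615 higher and 2128 lower with library totals alone. Library totals moved the median between the WT groups by −0.11. The count fell to 1382 without DAXX_WT replicate 2, 1540 without ATRX_WT replicate 3 and 1570 without ATRX_WT replicate 1. The median absolute log2 difference was 0.23 between the WT groups, against 0.45 for the DAXX_KO effect, 0.40 for the ATRX_KO effect and 0.45 for the difference. BCYRN1, an RNA polymerase III transcript of the brain, took 11.6 to 12.1% of counts in DAXX_WT, 8.44 to 10.1% in DAXX_KO, 9.24 to 9.68% in ATRX_WT and 4.36 to 5.11% in ATRX_KO, and its part in the results was not tested. In the named genes CENPA, IL32, HLA-B, H2BC12, H1-2, NFATC2 and NBPF8, DAXX_WT differed from ATRX_WT by more than DAXX_KO from ATRX_KO, by −1.15, −1.41, −0.74, 0.71, 1.12, −0.76 and −2.71 in that order, and in the direction that adds to the difference.

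Genes that differed were also grouped along the chromosomes. Of 259 blocks of about 60 consecutive tested genes, 64 had a median difference past 0.3 on the log2 scale, 39 above and 25 below. These blocks held 3788 genes, of which 1544 were called (40.8%), against 32.9% in the other blocks, and 277 of the 857 genes with opposite effects. The highest block median was 0.76, at chromosome 9 from 135250935 to 140764468, where the median effect was 0.86 in DAXX_KO and 0.03 in ATRX_KO. On chromosome 21, the last block, from 44394620 to 48111138, had a median difference of 0.62, with −0.19 in DAXX_KO and −0.73 in ATRX_KO. The lowest was −0.56, at chromosome 13 from 80910111 to 115103101. Relative to the neighbouring genes, 748 genes had opposite effects, of which 487 were among the 857. What sets these block shifts was not tested.

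**Figure D5:**
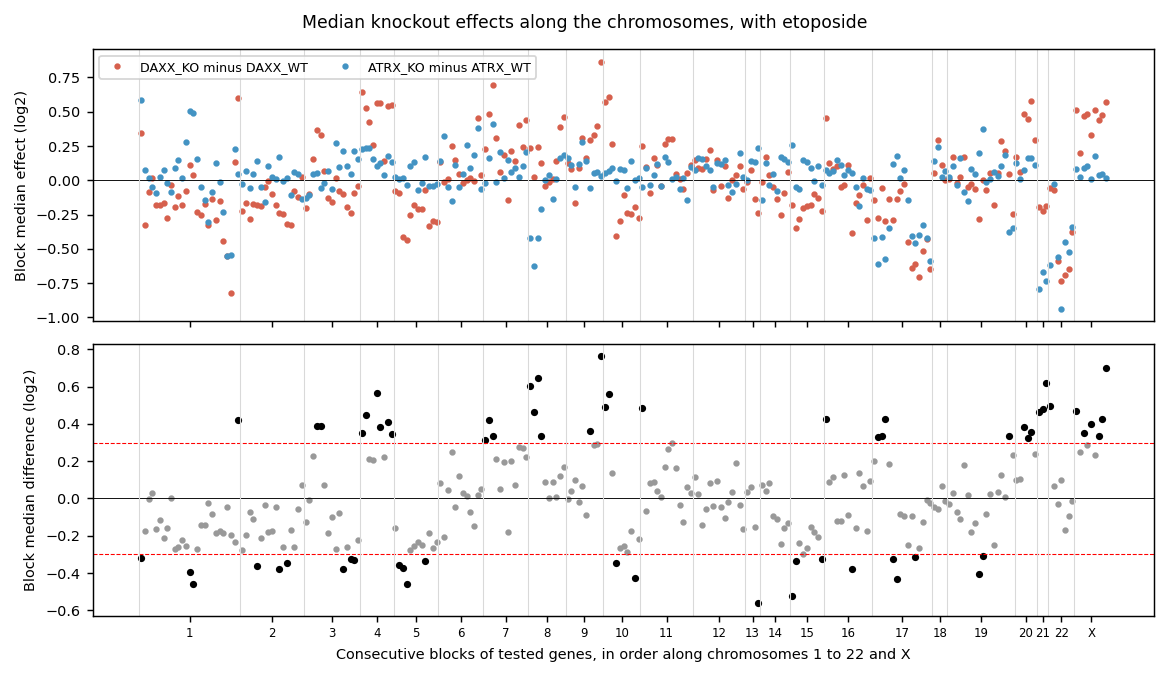
Median knockout effects (top, red for DAXX_KO and blue for ATRX_KO) and median difference (bottom, black where past 0.3, dashed lines) in log2 units, for consecutive blocks of tested genes along chromosomes 1 to 22 and X. Neighbouring blocks of chromosomes 4, 20, 21 and X lie together above 0, and chromosome 21 owes its difference to lower ATRX_KO values.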

How the data were processed

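RNA of 24 U87-T libraries (8 groups of 3) was sequenced with a QuantSeq 3′ kit. The authors aligned reads with STAR to hg19 and estimated read counts with RSEM on Ensembl models. The RSEM version is 1.2.3 per the labels, while the methods of the paper name another version. The deposit is 1 table of whole-number counts for 57736 gene IDs. Of these, 55501 were matched to GENCODE 44 on GRCh37, with 98.77% of etoposide counts. No column of other samples was present. Groups follow the titles.

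The 12 etoposide libraries (7736867 to 12993423 counts) were fitted with edgeR 4.0.16 in R 4.3.3 as 4 group means. Genes were kept by filterByExpr (minimum count 10, minimum total 15), TMM factors were 0.930 to 1.10, and the quasi-likelihood test was adjusted by Benjamini-Hochberg at 0.05. Control values come from a fit of all 24 libraries. Fold bounds set a group at or under 3 counts in every library to 3 counts, and cover counting error only. On simulated counts with known changes, the test of the difference recovered 52 of 97 genes changed by 1 and 78 of 98 changed by 2 on the log2 scale, with 8 false calls over 15695 genes. Few genes were changed there and libraries were drawn independently, unlike in these data, so those rates do not carry over.

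Named genes are DAXX, ATRX, CDKN1A, MDM2 and GADD45A, the 6 largest differences in each direction, the 8 opposite genes in each direction with the largest smaller effect, the 3 largest called members of each list, all called members of the 3 lists with the largest median, and the 4 largest changes from control in each direction, with a group mean of at least 10 CPM outside the lists. From the list members those with a role to describe were taken after their values were seen. Some genes that this rule names are not reported here. The libraries compared and the lists were chosen with earlier results of these data known.

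Same-numbered DAXX_KO and ATRX_KO libraries deviated together (correlations 0.218 to 0.349, each of 6 best with its own number), while other group pairs gave −0.283 to 0.048; the labels do not say what the numbers mark. Alternatives were DESeq2 1.42.0, other scalings and filters, replicate blocks, leaving out each library, centring on neighbouring genes and a minimum difference. Promoters are RefSeq windows on GRCh38.p14, and were not joined to GRCh37 coordinates.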

Additional observations from a re-analysis of the deposited data

Results flagged for a closer look

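The effects of the 2 knockouts differed with etoposide in 5531 genes, by the test of the difference itself, and were opposite in 857. The difference in turn changed between control and etoposide in 500 genes. The largest such changes were 5.80 in PRR9, 4.21 in SERPINB2, 4.04 in PTGS2 and 3.22 in VGF, and −2.72 in KALRN, −2.64 in RGS4, −2.60 in NFATC2 and −2.48 in GPRC5C, all in log2 units and called by edgeR. Single outlying libraries were not tested for within the groups of 3.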

How the results depend on the processing

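Against a minimum difference of 1 on the log2 scale, 635 genes and 91 list members were called, in place of 5531 and 494. The count between the WT groups was 706 with a replicate block within each series, in place of 2444, and 1382 to 2999 with 1 library left out. Genes whose difference changed from control numbered 752 with no filter on low counts and 664 by DESeq2, in place of 500, and 389 to 691 with 1 library left out. Blocks past 0.3 numbered 108 with 40 genes a block, in place of 64, and 65 to 75 with 1 library left out. Leaving out 1 library gave 4763 to 5771 genes in the difference, 694 to 970 with opposite effects, 7128 to 8363 in DAXX_KO, 6613 to 7933 in ATRX_KO and 428 to 513 list members. The difference of MDM2, near 0 at −0.01, changed sign to 0.12 relative to its neighbours and 0.00601 with no filter, and ran from −0.0666 to 0.0227 without 1 library. With a replicate block shared by the groups, 5576 genes were called in the difference and 886 were opposite, and within each series 5162 and 790. A replicate block shared by the knockout groups, chosen after seeing the data, gave 6235 and 726, of which 5500 and 584 were shared with the fit without a block. It changed no call in the difference of 189 named genes, but of 68 named genes with opposite effects 64 kept them, and PCGF3, DTNBP1, MAD2L1 and EXO1 did not, since an effect in 1 or both knockouts was no longer called. With the block within each series, FBLN5 alone of the 68 was lost. DESeq2 called 5252 and 792. Median differences of gene lists moved by more than the spread between replicates in 20 of 47 lists when centred on neighbouring genes, in 15 with at least 10 counts in every library, and in 1 to 10 without 1 library. No list did so by DESeq2, other scalings, blocks, no filter on low counts or all 24 libraries in one fit. Among these moves, the sign changed relative to neighbouring genes in p53 arrest targets (0.128, from −0.0767), NRF2 targets (0.0332, from −0.117), metallothioneins (0.196, from −0.289), H3K9 methylation genes (−0.0232, from 0.0869) and epithelial markers (−0.245, from 0.161). It changed with at least 10 counts in every library in growth factor ligands (−0.205, from 0.251), cadherins (0.112, from −0.716) and glycolysis genes (0.118, from −0.0391), and without DAXX_KO replicate 3 in the last (0.0893). The causes were not tested. At this depth, genes near 3 counts a library carry little information on a difference.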
